A study of Rattus norvegicus with 24 samples.

Results

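Whole dorsal root ganglia (DRG) of rats with a complete spinal cord transection (TX SCI) were compared with DRG of uninjured rats (No SCI). The libraries were taken by the group named in their labels, which gave 8 of the 24 libraries of the series, 4 TX SCI and 4 No SCI, with 1 female adult Sprague Dawley rat per library. The TX SCI rats had a laminectomy at T2, a scalpel cut through the whole cord at that level, and antibiotic and analgesic treatment after surgery, and their ganglia were collected at 8.5 weeks. The No SCI rats are described as naive, no sham operation is described for them, and they are labelled 11.5 weeks. The weeks are counted from the injury, which the No SCI rats did not have, so 11.5 weeks is taken here as the matching time of collection. Rats of both groups were kept 2 to a cage in small cages that limited walking, and in both the ganglia from T11 to L4 of both sides, which lie below the injury, were pooled within the animal. The difference between the groups therefore covers the transection, the surgery and its care, the time of collection and any difference in library preparation. These cannot be told apart. CONT SCI (contusion at T2 without exercise, 11.5 weeks, 6 libraries) entered the same fit, and CONT SCI + SWIM and CONT SCI + SWW (contusion at T2 followed by swimming or shallow water walking, 13.5 weeks, 5 libraries each) serve as further levels.

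The DRG hold the cell bodies of the sensory neurons that carry touch, pain and limb position from skin, muscle and viscera to the cord, together with satellite glia, Schwann cells, vessels, fibroblasts and immune cells. A complete transection removes all descending input to the cord below the cut, while the ganglia below it keep their peripheral axons and the central branches that enter the cord locally. Branches that ascend in the dorsal columns past the level of the cut are severed. Since whole ganglia were used, fewer cells of a type and less RNA per cell cannot be told apart.

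The deposited table carries Ensembl gene identifiers without symbols, and 0 of its 24613 rows could be paired with a symbol here. Genes are therefore given by identifier, with no statement of what they do, and markers of neurons, glia or other cells were not analysed here. For the same reason no promoter is shown.

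Across all genes, TX SCI differed from No SCI at 5271 of 15126 genes (34.8%, edgeR, threshold of 0.05 on the adjusted p). The calls were evenly split, with 2648 genes higher in TX SCI (17.5% of the genes tested) and 2623 lower (17.3%). Without regard to the test, the 4 TX SCI libraries all lay above the 4 No SCI libraries at 16.9% of genes and all below them at 16.3%. The median log2 fold change over all genes was 0.025.

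Most of these differences were small. Of the genes called higher, 1980 of 2648 (74.8%) changed by less than 1.5-fold, and of those called lower, 1700 of 2623 (64.8%). The median log2 fold change was 0.38 among the genes called higher and -0.45 among those called lower. Falls outnumbered rises among the larger changes. At least a 2-fold change was found for 229 genes in the rising direction (1.51% of the genes tested) and for 402 in the falling direction (2.66%). At 4-fold or more there were 58 rises and 132 falls, and at 8-fold or more 38 and 74. Of the 5271 genes, 6 had no read in 1 of the groups, 1 rising and 5 falling, and their fitted fold changes are not bounds. Levels are given as CPM, the counts of a gene per 1000000 reads of the library size, after TMM normalization.

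**Figure D1:**
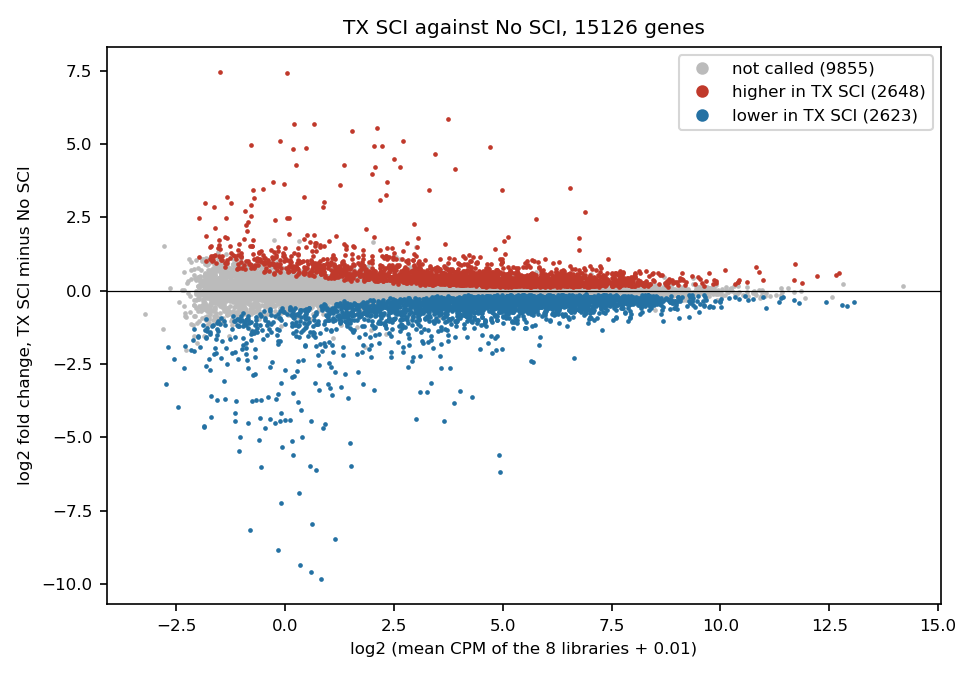
Log2 fold change of TX SCI minus No SCI (y axis) against the mean level over the 8 libraries (x axis, log2 of CPM with 0.01 added) for 15126 genes, with the 2648 called higher in red and the 2623 called lower in blue. There are 38 rises and 74 falls of 8-fold or more, and no gene with a mean above 1000 CPM changed by 2-fold or more.

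Values in each library are given for 4 genes, the 2 largest rises and the 2 largest falls by fitted log2 fold change among genes with an adjusted p under 0.05, a mean of at least 1 CPM over the 8 libraries and no overlap between the groups. Their adjusted p against No SCI and their lack of overlap were thus conditions of the choice and are no further support. ENSRNOG00000016141 had 0, 0, 0.0289 and 0 CPM in the No SCI libraries and 1.92, 1.93, 2.55 and 1.71 CPM in the TX SCI libraries. It was thus counted in each of the 4 TX SCI rats at a like level and nearly absent from the uninjured ones, where a single read was found among 4 libraries, against 244 reads in TX SCI. The gene passed the count filter of the fit only through the TX SCI libraries, where it is high. The ratio of the summed libraries was 255, with an exact 95% interval of 45.4 to 10126 that covers counting error only. The fitted log2 fold change, by the quasi-likelihood test of edgeR, was 7.40 with a standard error of 0.48 (adjusted p = 2.04e-08, Benjamini-Hochberg over 15126 genes). Without No SCI replicate 3, which holds that single read, No SCI stood at 0 and the gene was at least 19.8-fold higher in TX SCI, with 3 counts per library as the floor.

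Outside TX SCI this gene was near absent as well, with 1 exception. The 6 CONT SCI libraries lay between 0 and 0.0330 CPM (median 0), and the 5 CONT SCI + SWIM libraries between 0 and 0.0331 CPM (median 0). In CONT SCI + SWW, 4 libraries had no read, and replicate 4 had 30 reads, or 1.48 CPM, close to the lowest TX SCI library. TX SCI was higher than CONT SCI (edgeR adjusted p = 1.63e-09).

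ENSRNOG00000006151 rose from a low level in every uninjured rat. It had 0.369, 0.512, 0.347 and 0.586 CPM in No SCI and 49.6, 21.8, 22.3 and 11.9 CPM in TX SCI. The groups did not overlap, which was a condition of naming the gene. The TX SCI rats differed among themselves more than the No SCI rats did, with 26.4 ± 16.2 CPM (SD, n = 4) against 0.454 ± 0.115 (SD, n = 4). The log2 fold change was 5.86 with a standard error of 0.87 (edgeR, adjusted p = 0.000136). In CONT SCI it lay between 1.17 and 21.6 CPM (median 10.8), so that the contused rats reached from near the uninjured level into the range of the transected ones. The log2 fold change of TX SCI against CONT SCI was 1.42 with a standard error of 0.53 (edgeR, adjusted p = 0.0430). This call was lost in 12 of 19 alternative settings, among them each fit without TX SCI replicate 1, 2 or 3 or without CONT SCI replicate 1, 2, 5 or 6, and the log2 fold change was 0.92 (adjusted p = 0.209) without TX SCI replicate 1. The exercised groups lay between 0.649 and 9.91 CPM in CONT SCI + SWIM (median 0.863) and between 0.908 and 21.7 CPM in CONT SCI + SWW (median 3.98). The highest CONT SCI + SWW library was again replicate 4.

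The 2 named falls had another form. ENSRNOG00000037188 had 0.336, 5.91, 7.35 and 0.655 CPM in No SCI and no read in any of the 4 TX SCI libraries. No SCI replicates 2 and 3 thus stood well above replicates 1 and 4, and the mean of 3.56 CPM rested on them. Set against 3 counts per TX SCI library, the gene was at least 33.1-fold lower in TX SCI (edgeR adjusted p = 0.00308). Without No SCI replicate 3 this bound was 21.4, and without replicates 2 and 3 it was 4.60, with an edgeR adjusted p of 0.0364. In a fit of the TX SCI and No SCI libraries alone, the gene did not pass the count filter and was not tested. CONT SCI lay between 0.0317 and 1.83 CPM (median 0.407), and in the exercised groups 3 of 5 CONT SCI + SWIM and 4 of 5 CONT SCI + SWW libraries had no read.

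ENSRNOG00000047986 followed the same libraries, with 0.470, 4.17, 6.65 and 0.828 CPM in No SCI and no read in TX SCI. It was at least 28.2-fold lower in TX SCI by the same floor (edgeR adjusted p = 0.00134). The bound was 16.9 without No SCI replicate 3 and 6.03 without replicates 2 and 3, with an edgeR adjusted p of 0.00900. Against CONT SCI the edgeR adjusted p was 0.0469 for ENSRNOG00000037188 and 0.0343 for ENSRNOG00000047986. Both calls were lost without any 1 of the TX SCI libraries or without CONT SCI replicate 6, and that of ENSRNOG00000037188 also without CONT SCI replicate 2, 4 or 5, with adjusted p-values of at most 0.0925 and 0.0730. What sets No SCI replicates 2 and 3 apart at these genes was not tested.

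**Figure D2:**
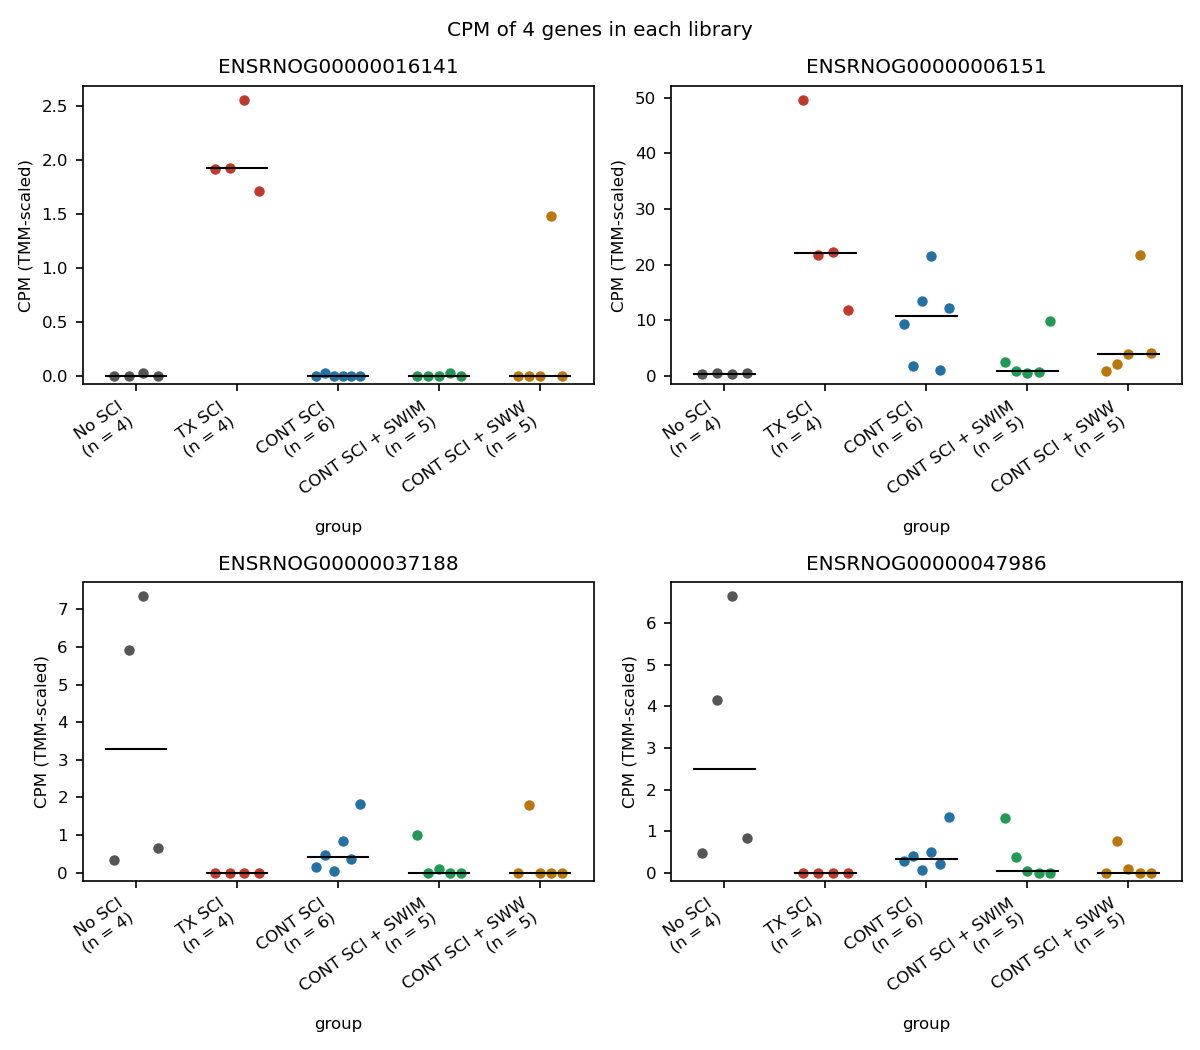
CPM (y axis, linear) of the 4 genes in each of the 24 libraries by group (x axis), with a line at the group median. ENSRNOG00000016141 lay at 1.71 to 2.55 CPM in the 4 TX SCI libraries, at 1.48 CPM in 1 CONT SCI + SWW library and at 0.0331 CPM or less in all others, and the 2 falling genes were at 0 in all 4 TX SCI libraries and highest in No SCI replicates 2 and 3.

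Genes that were counted in every library of 1 group and nearly absent from the other were few. With at least 10 counts in each library of the first group and at most 3 in each of the second, 3 genes were present in TX SCI and near absent in No SCI, and 20 genes were present in No SCI and near absent in TX SCI. The limits were set after the values were seen. The 3 genes, of which ENSRNOG00000016141 is 1, summed to between 3.64 and 6.56 CPM in TX SCI, at most 0.116 CPM in No SCI and at most 0.167 CPM in CONT SCI, while the exercised libraries ranged from 0.0994 to 0.785 CPM in CONT SCI + SWIM and from 0.133 to 2.31 CPM in CONT SCI + SWW. The highest of these were CONT SCI + SWW replicates 4 (2.31 CPM, of which ENSRNOG00000016141 gave 1.48) and 5 (0.812) and CONT SCI + SWIM replicates 5 (0.785) and 1 (0.697).

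The 20 genes that were near absent in TX SCI fell into 2 patterns. For 11 of them, all 10 No SCI and CONT SCI libraries lay above all 14 TX SCI and exercised libraries. These 11 genes had 11 to 57 counts in No SCI, 8 to 79 in CONT SCI, 0 to 3 in TX SCI, 0 to 4 in CONT SCI + SWIM and 0 to 5 in CONT SCI + SWW. Their summed level was 8.40 to 9.60 CPM in No SCI and 7.79 to 12.8 in CONT SCI, against 0.336 to 0.570 in TX SCI, 0.370 to 0.762 in CONT SCI + SWIM and 0.384 to 0.498 in CONT SCI + SWW. The separation of these sums follows from the way the 11 genes were picked out, and the other 9 did not show it. Over all genes tested, 4.47% had all 14 TX SCI and exercised libraries below the 10 others, and among the 2460 genes with all 4 TX SCI below all 4 No SCI libraries (on CPM scaled over the 14 libraries of the fit) 27.4% did.

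The 9 other genes varied from rat to rat. They summed to 4.40, 40.0, 49.4 and 6.38 CPM in the No SCI libraries and to between 0.0255 and 0.309 CPM in TX SCI. For 8 of the 9, No SCI replicates 2 and 3 both had more than 2 times the counts of replicates 1 and 4, as ENSRNOG00000037188 and ENSRNOG00000047986 did. CONT SCI ranged from 0.540 to 13.3 CPM (median 3.10), so single contused rats stood as high as the lower uninjured ones.

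**Figure D3:**
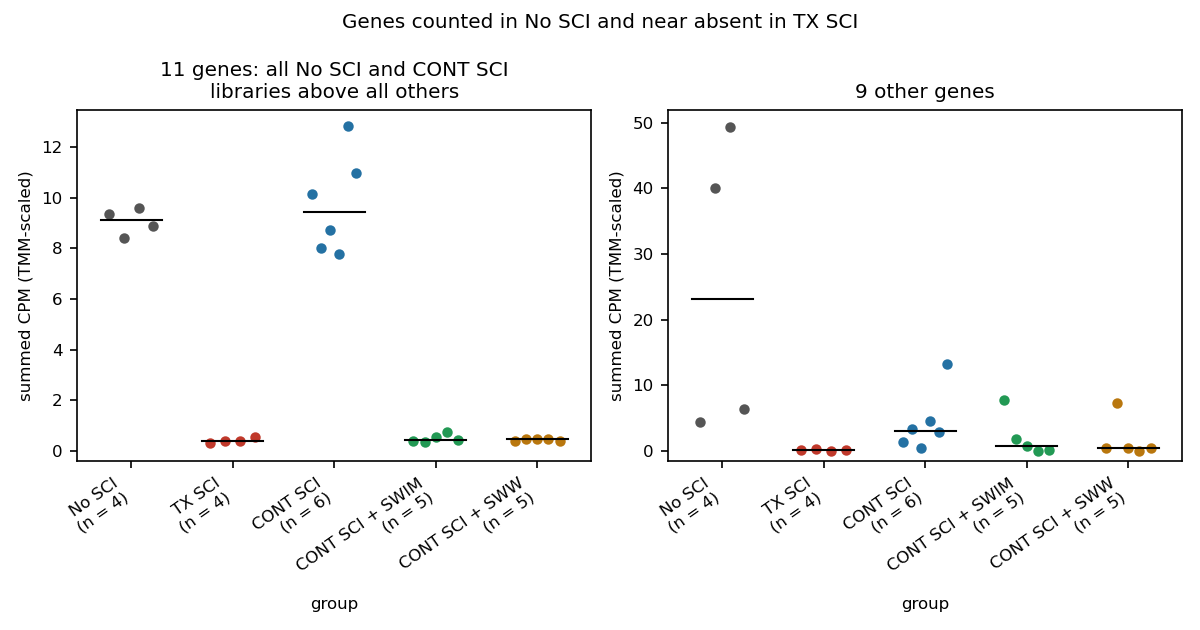
Summed CPM (y axis, linear) of the 20 genes counted in No SCI and near absent in TX SCI, per library by group, with a line at the group median. The 11 genes at the left lie at 7.79 CPM or more in all No SCI and CONT SCI libraries and at 0.762 or less in all others, and the 9 at the right are high in No SCI replicates 2 and 3.

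The share of genes called was higher in each class of higher level, while the median standard error fell up to 1000 CPM and was slightly larger above. Of the 1602 genes with a mean under 1 CPM, 19.3% were called, with a median standard error of 0.33 on the log2 scale. Of the 3967 genes from 1 to 10 CPM, 30.1% were called. From 100 to 1000 CPM, 41.0% of 2024 genes were called, with a median standard error of 0.07. The balance of directions differed between the classes, which was not tested. Under 1 CPM, 140 genes were higher in TX SCI and 169 lower, and from 1 to 10 CPM 627 were higher and 566 lower. Of the 7449 genes from 10 to 100 CPM, 1537 were higher in TX SCI and 1366 lower, while from 100 to 1000 CPM 329 were higher and 501 lower. Above 1000 CPM, 15 of 84 genes were higher and 21 lower, with a median standard error of 0.08. Changes of 2-fold or more came mostly from the lower classes. Under 1 CPM there were 93 rises and 140 falls of this size among the 1602 genes, from 1 to 10 CPM 105 and 178 among the 3967, and from 10 to 100 CPM 27 and 78 among the 7449.

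**Figure D4:**
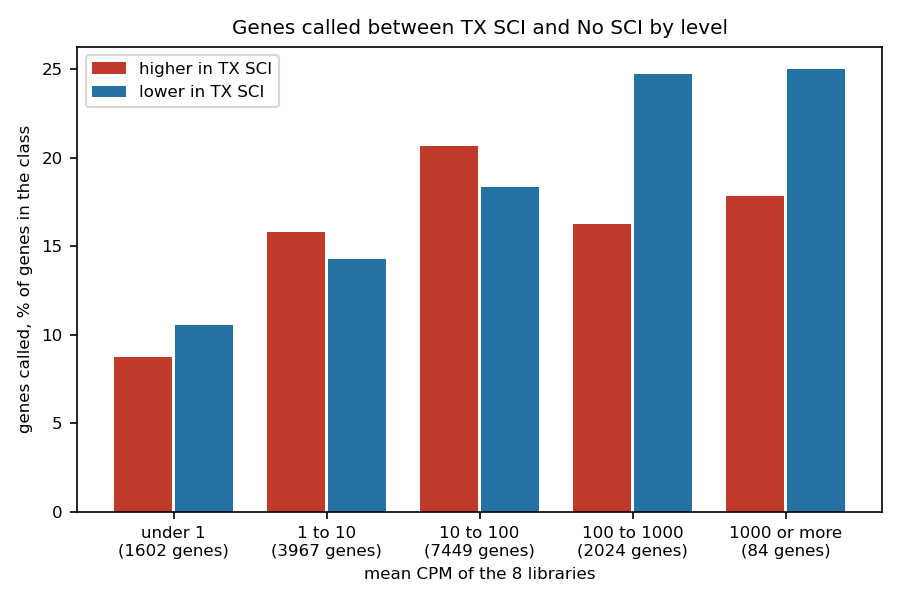
Genes called higher (red) or lower (blue) in TX SCI, as a percentage of the genes in each class of mean CPM over the 8 libraries (bars from 0). Between 100 and 1000 CPM, 16.3% of genes were higher and 24.8% lower.

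As a share of all reads, the genes called lower made up 25.3% to 28.1% of the counts in the No SCI libraries and 20.5% to 21.7% in the TX SCI libraries. The genes called higher made up 14.7% to 16.8% in No SCI and 19.6% to 21.0% in TX SCI. These genes were chosen on the same libraries, so the shares describe how much of the RNA the calls concern. No SCI replicate 3 stood nearest to TX SCI on both, at 25.3% and 16.8%, while the other No SCI libraries lay between 27.6% and 28.1% and between 14.7% and 14.9%.

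A bounded statement can also be made for the genes that were not called. For 7274 of the 9855 genes not called (73.8%), the 95% interval of the fold change lay wholly within 1.5-fold in either direction, so a larger change is outside the interval for them. For the remaining genes the interval reached further, and the libraries do not settle whether they changed. At the other extreme, the whole interval lay beyond 1.5-fold for 181 rising and 428 falling genes.

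The counts per library summed to between 29191327 and 33841979 in No SCI and between 20040086 and 38730307 in TX SCI. With each library thinned at random to the lowest total of the 8, 17038 to 17318 genes had at least 1 count in No SCI and 17143 to 17301 in TX SCI. The means differed by 67.2 genes, within the spread of the libraries (two-sided exact permutation test, p = 0.371, n = 4 and 4, 0.686 after Benjamini-Hochberg adjustment over 3 such tests, where 4 against 4 cannot go below 0.0286). The number of genes with at least 10 counts after thinning was 14338 ± 114 (SD, n = 4) in No SCI and 14382 ± 68.7 (SD, n = 4) in TX SCI (the same exact test, p = 0.571, adjusted 0.686). The 10 genes with the most counts took 7.94% ± 0.67 (SD, n = 4) of the counts in No SCI and 8.11% ± 0.45 (SD, n = 4) in TX SCI (the same exact test, p = 0.686, adjusted 0.686). A difference in the number of genes detected or in the dominance of a few genes was not detectable with these libraries.

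The spread between rats differed little between the groups below 1000 CPM. For the genes from 10 to 100 CPM, the median SD of log2 CPM (with 0.5 added) was 0.10 in No SCI and 0.10 in TX SCI, and for those from 100 to 1000 CPM 0.09 and 0.08. It was 0.20 and 0.21 under 1 CPM, 0.16 and 0.17 from 1 to 10 CPM, and 0.11 and 0.08 for the 84 genes above 1000 CPM, where TX SCI had the larger SD at 34.5% of genes. Across 13524 genes, Pearson's r of log2 CPM was 0.992 to 0.996 between No SCI libraries, 0.990 to 0.995 between TX SCI libraries and 0.972 to 0.981 between the groups. Genes are not independent replicates, and these values describe likeness only. No SCI replicate 3 had r of 0.979 to 0.981 with the TX SCI libraries, and the other No SCI libraries 0.972 to 0.977.

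CONT SCI, an injury at the same level with some descending input spared, carries the same time label as No SCI. In the same fit TX SCI was higher than CONT SCI at 3001 genes (19.8%) and lower at 3112 (20.6%). This contrast compares the 2 injury groups. It shares the TX SCI libraries with that against No SCI and, like it, sets a collection at 8.5 weeks against one at 11.5 weeks. The paper also describes extensive care for the transected animals. The severity of the injury, the care, the time of collection and any difference in library preparation therefore cannot be told apart in it.

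The larger falls and the larger rises differed in where the other groups lay. Of the 402 genes at least 2-fold lower in TX SCI, 239 (59.5%) had all 10 No SCI and CONT SCI libraries above all 14 TX SCI and exercised libraries. Of the 229 genes at least 2-fold higher, 13 (5.68%) had the 14 libraries above the 10. Among all genes whose TX SCI libraries lay below the No SCI libraries, 673 of 2460 (27.4%) had the 10 libraries above the 14, and among those whose TX SCI libraries lay above, 209 of 2549 (8.20%) had the 14 above the 10. Over all 15126 genes, 676 (4.47%) separated the libraries in the falling direction and 209 (1.38%) in the rising direction. These use CPM scaled over all 24 libraries, while the overlap of TX SCI and No SCI was read on CPM scaled over the 14 libraries of the fit, which is why 673 of the 676 are among the 2460. The members of both lists were chosen on the TX SCI and No SCI libraries, which also enter this count, so it is given as a description.

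Exercised and unexercised contusion share no library with TX SCI and No SCI, and their difference can be set beside the genes called here. The fits were not separate, however. CONT SCI entered the fit that called TX SCI against No SCI, and TX SCI and No SCI entered the fit that called the exercised groups. Scaling and the estimate of spread thus rest in part on the same libraries. The 2 exercise comparisons share the CONT SCI libraries. Over 15247 genes tested in a fit of all 24 libraries, CONT SCI + SWIM was higher than CONT SCI at 13.1% and lower at 19.7% (edgeR adjusted p under 0.05), and CONT SCI + SWW higher at 19.1% and lower at 24.2%. Among the 395 measured genes at least 2-fold lower in TX SCI than in No SCI, 278 (70.4%) were lower in CONT SCI + SWIM than in CONT SCI and 3 (0.759%) were higher. In CONT SCI + SWW, 280 (70.9%) of them were lower and 10 (2.53%) higher. Their median log2 fold change was -1.38 in CONT SCI + SWIM and -1.32 in CONT SCI + SWW, against -0.01 and 0.00 over all genes.

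The larger rises met a weaker counterpart. Among the 227 measured genes at least 2-fold higher in TX SCI, 74 (32.6%) were higher in CONT SCI + SWIM than in CONT SCI and 21 (9.25%) lower, with a median log2 fold change of 0.33. In CONT SCI + SWW, 77 (33.9%) were higher and 45 (19.8%) lower, with a median of 0.39. Over all genes called, 35.3% of those higher in TX SCI were higher in CONT SCI + SWIM and 37.3% in CONT SCI + SWW, and of those lower in TX SCI, 58.6% and 54.0% were lower. As a share of the exercise lists, 46.7% of the genes higher and 51.1% of the genes lower in CONT SCI + SWIM were called in the same direction in TX SCI against No SCI, and 33.9% and 38.3% for CONT SCI + SWW, where 17.5% of all genes tested were called higher and 17.3% lower in TX SCI. The labels give 8.5 weeks for TX SCI, 11.5 for No SCI and CONT SCI and 13.5 for the exercised groups, and the part of time in this shared separation was not tested. The labels name adapter sets A and B for the libraries without saying which library had which, and the part of library preparation was not tested either.

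**Figure D5:**
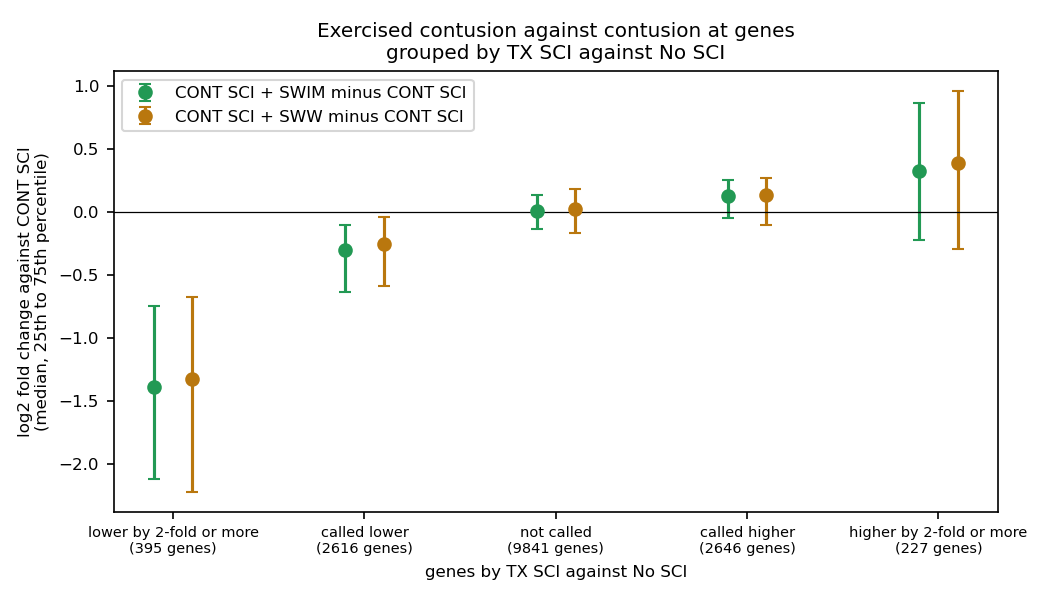
Log2 fold change of each exercised contusion group minus CONT SCI (y axis), as median with 25th to 75th percentile, for genes grouped by TX SCI against No SCI (x axis, with the number of genes measured). Genes at least 2-fold lower in TX SCI have medians of -1.38 and -1.32, and genes at least 2-fold higher have medians of 0.33 and 0.39 with percentiles on both sides of 0.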

How the data were processed

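RNA from DRG of 24 rats in 5 groups was sequenced as single-end reads of stranded, poly-A enriched libraries. Reads were aligned by the authors with STAR (rn6), counted per Ensembl gene with HTSeq 0.10.0, reverse strand, without mitochondrial genes, and deposited as raw counts. Reads shared by near-identical or overlapping genes may be lost or split, which could not be examined for the genes named. Columns were matched to samples by group and replicate number. From the counts, edgeR 4.0.16 in R 4.3.3 fitted TX SCI, No SCI and CONT SCI together (14 samples, glmQLFit and glmQLFTest, TMM, filterByExpr with a minimum count of 10 and total of 15, Benjamini-Hochberg adjustment, threshold 0.05), which left 15126 genes. Standard errors were obtained as the absolute log2 fold change over the root of F. CPM per library were TMM-scaled over all 24 samples and the mean levels used for classes over the 14. Single values were compared by exact permutation in scipy 1.17.1. The test was checked on simulated data. Chi-square per gene was 4.77 to 27.1 over the 12 pairs within No SCI and within TX SCI, so none of these 8 libraries appeared deposited again within its group.

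The members, gene lists and tests were chosen with earlier results of these data known. The gene lists, by symbol, were not analysed here, since 0 Ensembl identifiers are in the annotation table at hand (GRCr8, 47357 genes). Named genes were the 2 largest rises and 2 largest falls called, by fitted log2 fold change, with a mean of at least 1 CPM and no overlap. Alternatives were edgeR's RLE scaling, DESeq2 1.42.0, other filters, samples and thresholds, robust dispersion, the replicate number as a block and each replicate left out. Left-out pairs, thinning, and the alternatives for the 2-fold counts and for the named genes against CONT SCI were added after the data were seen.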

Additional observations from a re-analysis of the deposited data

Results flagged for a closer look

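Of 43 sets of values compared within a group, 14 had a library standing apart. The nominal rate of the rule would give 2.15 sets. That figure does not hold here, since a lone read among libraries at 0 always stands apart. The genes of these sets overlap, so they are not independent. For ENSRNOG00000016141, CONT SCI + SWW replicate 4 had 1.48 CPM against 0 in the others of its group, and 3 further libraries stood apart through a single read each, No SCI replicate 3 (0.0289 CPM), CONT SCI replicate 2 (0.0330) and CONT SCI + SWIM replicate 4 (0.0331). For ENSRNOG00000006151, CONT SCI + SWW replicate 4 had 21.7 CPM against 0.908 to 4.13, and CONT SCI + SWIM replicate 5 had 9.91 against 0.649 to 2.48.

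The 2 named falls and the 9 variable genes stood apart in 3 libraries of other groups. CONT SCI + SWIM replicate 1 had 1.01 CPM of ENSRNOG00000037188 and 1.32 of ENSRNOG00000047986, against at most 0.0999 and 0.370 in the rest of its group, and 7.75 CPM of the 9 variable genes near absent in TX SCI against at most 1.85. CONT SCI + SWW replicate 2 had 1.79 and 0.763 CPM of the same genes, against at most 0 and 0.0829, and 7.40 CPM of the 9 genes against at most 0.494. CONT SCI replicate 6 had 1.34 CPM of ENSRNOG00000047986 against at most 0.502 and 13.3 CPM of the 9 genes against at most 4.55.

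TX SCI and CONT SCI differed, as tested in 1 fit, at 6113 genes. The named genes were among them, with edgeR adjusted p-values of 1.63e-09 for ENSRNOG00000016141, 0.0430 for ENSRNOG00000006151, 0.0469 for ENSRNOG00000037188 and 0.0343 for ENSRNOG00000047986. The last 3 calls were lost in several alternatives.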

How the results depend on the processing

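Other scalings, tests, filters and samples kept the counts of genes called between TX SCI and No SCI or CONT SCI, and of 2-fold changes against No SCI, within 1.5 times the values reported, with the exceptions given here. Other counts were not recomputed. An adjusted p under 0.01 left 3125 genes between TX SCI and No SCI (1432 higher, 1693 lower) and 3970 between TX SCI and CONT SCI, and a change of at least 2-fold left 631 (229 higher, 402 lower) and 559. With at least 50 counts required, 111 rises and 240 falls reached 2-fold, and with no count filter 351 rises did. With each replicate left out in turn, the count for TX SCI against No SCI ranged from 4086 to 5711 (1933 to 2859 higher, 2025 to 2852 lower), that against CONT SCI from 5117 to 7026, the rises of at least 2-fold from 205 to 304 and the falls from 396 to 453. For TX SCI against No SCI, the direction and the call of the 4 named genes held in every alternative in which they were tested. ENSRNOG00000037188 could not be tested in 3, the minimum of 50 counts, the fit of only the 2 groups and the replicate block. ENSRNOG00000016141 and ENSRNOG00000047986 could not be tested in 1, the minimum of 50 counts. A filter removed them there. With the libraries of the 2 groups alone ENSRNOG00000037188 did not pass the default filter, and it was tested in the main fit, which also held CONT SCI. Against CONT SCI the call of ENSRNOG00000016141 held in the 18 alternatives that tested it, while ENSRNOG00000006151, ENSRNOG00000037188 and ENSRNOG00000047986 lost theirs in 12 of 19, 11 of 18 and 7 of 16 (highest adjusted p 0.209, 0.0925 and 0.0730). With only the libraries of the 2 groups, 2440 genes were higher in TX SCI than in No SCI and 3041 lower. The replicate numbers belong to different animals, and the deviations of same-numbered TX SCI and No SCI libraries correlated with r from -0.181 to 0.0481, with 1 of 4 TX SCI libraries most like its own number. With the replicate block, 4598 genes differed between TX SCI and No SCI (1990 higher, 2608 lower) and 4788 between TX SCI and CONT SCI. The alternatives for the gene lists were not run, since no list could be matched. Precision was lowest for genes under 1 CPM, with a median standard error of 0.33, and the part of depth in this was not tested.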
